A study of Homo sapiens with 6 samples.

Results

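The genes described here encode the subunits of the respiratory chain and ATP synthase, in a liver cancer line made resistant to lenvatinib. They were picked by a rule on gene symbols, set with earlier results of these data known. It took the NDUFA, NDUFB, NDUFC, NDUFS and NDUFV genes, NDUFAB1, SDHA to SDHD, the UQCR genes and CYC1. It also took the COX4 to COX8 forms, the ATP5 genes without ATP5IF1, and the 13 mRNAs of the mitochondrial genome. This rule found 101 of the 24432 gene symbols, of which 99 are subunit genes, 86 nuclear and 13 mitochondrial. The other 2, UQCRB-AS1 and UQCRFS1-DT, are noncoding and were under 1 FPKM in every library. NDUFA4, whose protein is now placed in cytochrome c oxidase, was counted with complex IV.

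RNA-seq libraries of 2 states were compared, with 3 libraries each, and all 6 are labelled as PLC/PRF/5, an established human cell line from a hepatocellular carcinoma. The resistant cells carry the genotype label lenvatinib resistant and the treatment label lenvatinib. They had been passaged in rising doses of this kinase inhibitor, which acts on VEGF and FGF receptors, with a stated start of 20 µmol/L, steps of 0.5 mmol/L and an end of 40 mmol/L, so the stated units do not match each other. The sensitive cells carry the genotype label WT and the treatment label control, and both groups were grown with 10% serum. Only the resistant libraries carry the drug label, so drug exposure and resistance cannot be told apart. No label ties the replicates to separate cultures, and the p-values below cover the spread between these libraries, which may be technical.

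The libraries themselves set limits on what follows. Sensitive replicate 3 stood apart, with Pearson's r of 0.952 and 0.964 to the other sensitive libraries across tested genes. Among resistant replicates r was 0.994 to 0.996. Calls of named genes that changed without sensitive replicate 3 are given both ways. Many fold changes below are given over all 6 libraries only. Libraries of different groups correlated at only 0.680 to 0.706. Of 8 hepatocyte markers 7 reached the filter, and all 7 were lower in resistant cells. Only APOA1, APOB and SERPINA1 had values of at least 1 FPKM in both groups. The other tested ones reached the filter by their sensitive values alone, which fixed their direction. The 8 summed to 11.1 to 27.2 FPKM in resistant and 2891 to 2987 FPKM in sensitive libraries, without overlap. The 4 cholangiocyte and progenitor markers went different ways. KRT7 was at 106 ± 8.64 FPKM in resistant and 0.498 ± 0.408 FPKM in sensitive cells, with only its resistant values reaching the filter. SOX9 was at 11.4 ± 0.379 FPKM in resistant and 3.24 ± 1.29 FPKM in sensitive cells, EPCAM at 11.2 ± 0.490 FPKM in resistant and 27.8 ± 2.15 FPKM in sensitive cells, and KRT19 at most at 0.148 FPKM in any library. Albumin (ALB) was low even in the sensitive libraries, at a mean of 3.21 FPKM. The part of these marker differences in the results below was not tested. Whether the resistant and sensitive libraries come from the same line was not tested either, and the groups are named as labelled. Fibroblast markers summed to at most 0.236 FPKM in any resistant and 1.80 FPKM in any sensitive library, and the pan-leukocyte gene PTPRC was listed at 0 in all 6. The lysosomal and macrophage gene CD68 was lower, at 3.00 ± 0.664 FPKM in resistant and 14.1 ± 3.53 FPKM in sensitive cells. In bulk RNA, fewer cells of a kind and less RNA per cell cannot be told apart.

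The respiratory chain passes electrons from NADH (complex I) and succinate (complex II) through ubiquinol and complex III to cytochrome c and on to oxygen (complex IV), and ATP synthase (complex V) uses the proton gradient that complexes I, III and IV build. Complex II is built wholly from nuclear genes, while the others join nuclear subunits to subunits encoded in mitochondrial DNA. Liver cells are rich in mitochondria, and liver tumour cells differ widely in how much they rely on this pathway.

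Most subunit mRNAs were lower in resistant cells, the mitochondrially encoded ones with the lower median. Of the 93 subunit genes that passed a filter of 1 FPKM in at least 3 libraries, 72 were lower, 4 were higher and 17 did not pass an adjusted p of 0.05 in limma with Benjamini-Hochberg adjustment over all tested genes. Of all 11694 tested genes, 67.7% passed, 32.5% as lower and 35.2% as higher, so a change by itself is common in this comparison. Lower calls made up 77.4% of the tested subunit genes and higher calls 4.30%. The median log2 fold change, resistant over sensitive on the scale of log2(FPKM + 1), was -0.80 over these genes and 0.08 over all tested genes. In 40 subunit genes the fall was at least 2-fold and in 1 gene the rise was, against 18.5% and 19.7% of all tested genes. Both counts are over all 6 libraries. Without sensitive replicate 3 the rise, in NDUFS4, was 0.93 on the log2 scale, and some falls were under 1, such as that of NDUFS3 (-0.98). Resistant values lay wholly below sensitive ones for 73 of the 93 and wholly above for 7. Of all tested genes, 74.4% had groups that did not overlap, 35.1% with resistant values below and 39.3% above.

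By genome of origin, 12 of 13 mitochondrial mRNAs fell and none rose, with a median log2 fold change of -1.42. Of 80 tested nuclear genes of 86, 60 fell, 4 rose and 16 did not pass, with a median of -0.68. Without sensitive replicate 3, 61 nuclear genes fell and 8 rose (median -0.70), and 12 mitochondrial mRNAs fell and 1 rose (median -1.35). Under quantile normalization the medians no longer differed in that order, at -0.64 for the mitochondrial and -0.65 for the nuclear genes. Without sensitive replicate 3, 35.5% of all 10801 tested genes were lower and 43.8% higher.

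**Figure D1:**
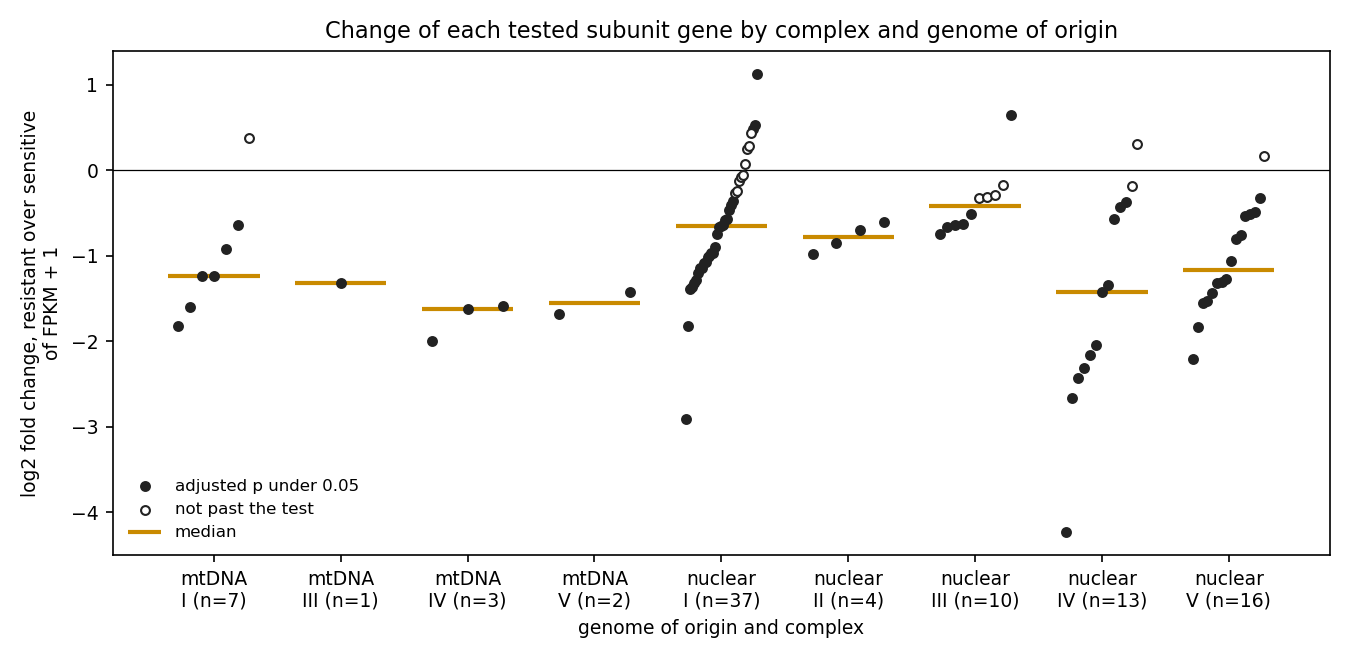
Log2 fold change of FPKM + 1, resistant over sensitive, for each tested subunit gene, grouped by genome of origin (mtDNA or nuclear) and complex. Each point is 1 gene, filled where the limma adjusted p was under 0.05, and bars are medians. The medians of nuclear complexes IV and V, at -1.42 and -1.17, lie below those of nuclear complexes I, II and III, at -0.66, -0.78 and -0.42.

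The mitochondrial genome of mammals is transcribed as long precursors from both strands that are cut into separate mRNAs, with ND6 alone on the light strand. A pair of short frames overlap with the next frame on a shared mRNA, ATP8 with ATP6 and ND4L with ND4. Their shared bases are shown because reads there cannot be given to 1 gene, and the counting rule for such reads is not given in the sources used here. The first stretch is 46 bases long, lies at chrM:8527-8572 on the plus strand in GENCODE release 29 (GRCh38), and has the start codon of ATP6 and the stop codon of ATP8 in capitals.
ATP8 and ATP6: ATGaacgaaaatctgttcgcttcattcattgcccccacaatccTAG
The stretch shared by ND4L and ND4, at chrM:10760-10766 on the plus strand, is 7 bases long. The RefSeq table of GRCh38.p14 also holds 474 nuclear pseudogenes of these mitochondrial genes, 37 of them of ND1, and none of the 474 is a row of the files, so how reads of near-identical copies were placed is uncertain for all 13 mRNAs.

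Together the 13 mRNAs summed to 28780, 28693 and 26394 FPKM in resistant libraries and to 67036, 73181 and 82561 FPKM in sensitive ones. The groups were far apart, at means of 27956 ± 1353 and 74259 ± 7819 FPKM (SD, n = 3 each), a 2.66-fold lower sum in resistant cells (2.51-fold without sensitive replicate 3). As a share of all summed FPKM the 13 mRNAs took 7.62%, 7.84% and 7.18% in resistant and 16.3%, 17.1% and 17.4% in sensitive libraries. Each resistant library had 5 of these mRNAs among its 10 highest genes, and each sensitive library had 8. Since FPKM is relative to each library's total reads, every other gene's value moves with the reads these mRNAs take. Their share of summed FPKM is not that share of reads. All genes summed to 366048 to 377923 FPKM in resistant and 410492 to 475088 FPKM in sensitive libraries, without overlap. Without the 13 mRNAs these sums overlapped, at 337355 to 349143 and 343456 to 392527 FPKM. Rescaling without the mitochondrial mRNAs is among the alternatives.

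Cytochrome c oxidase subunit 1 (COX1), which carries the enzyme's oxygen-reducing centre, was the highest gene of all 6 libraries. It was at 5022, 5079 and 4538 FPKM in resistant and at 12860, 14180 and 17157 FPKM in sensitive libraries (log2 fold change -1.59, SE 0.14, limma adjusted p = 7.4e-05). Every resistant library was under every sensitive one by a wide margin. Quantile normalization sets COX1, as the highest gene, to the same value in every library, so that it has no fold change there. COX2, which takes electrons from cytochrome c, had the largest fall of the 13, with 3541, 3515 and 3095 FPKM in resistant and 11838, 13310 and 15763 FPKM in sensitive libraries (-2.00, SE 0.14, adjusted p = 2.3e-05 in limma). COX3, the remaining core subunit, fell by 1.62 on the log2 scale.

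Of the ATP synthase mRNAs, ATP6, the proton channel subunit, fell by 1.69 and ATP8 by 1.42. CYTB, the mitochondrially encoded subunit of complex III, had a log2 fold change of -1.32. It was at 1692, 1641 and 1539 FPKM in resistant and at 3873, 4267 and 4046 FPKM in sensitive libraries. Among the complex I mRNAs, ND5 fell by 1.83, ND3 by 1.60, ND4 by 1.24, ND4L by 1.23, ND2 by 0.92 and ND6 by 0.64. Under quantile normalization the log2 fold change of ND4 was 0.0035 and did not pass (limma adjusted p = 0.98). ND3 was uneven in the sensitive group, at 5195 FPKM in replicate 3 and at 2811 and 3487 FPKM in replicates 1 and 2. The light strand mRNA ND6 was the lowest of the 13, at 384, 313 and 280 FPKM in resistant and 526, 521 and 470 FPKM in sensitive libraries, and whether its reads were kept apart from the opposite strand is not known.

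ND1, a complex I subunit next to the quinone site, went the other way. It was at 3880, 3706 and 3540 FPKM in resistant libraries and at 2514, 2681 and 3474 FPKM in sensitive ones. All 3 resistant libraries were above all 3 sensitive ones, but by little where sensitive replicate 3 is concerned. The log2 fold change of 0.37 (SE 0.15) did not pass the test (limma adjusted p = 0.057), and without sensitive replicate 3 it was 0.51 and passed (adjusted p = 0.00054). It also passed as higher after rescaling without mitochondrial mRNAs (0.46), narrowly with a robust fit (limma adjusted p = 0.049), and under quantile normalization (1.52). Under every other alternative, including any other library left out, ND1 did not pass. Its log2 fold change there was 0.28 to 0.41 (limma adjusted p of 0.053 to 0.25). ND1 ranked 2nd among all genes in each resistant library and 11th or 12th in the sensitive ones. As a share of the 13 mRNAs, ND1 took 13.5%, 12.9% and 13.4% in resistant and 3.75%, 3.66% and 4.21% in sensitive libraries (exact permutation test over 3 against 3 libraries, two-sided p = 0.1, the smallest this design allows). ND2, its neighbour on the genome, fell.

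**Figure D2:**
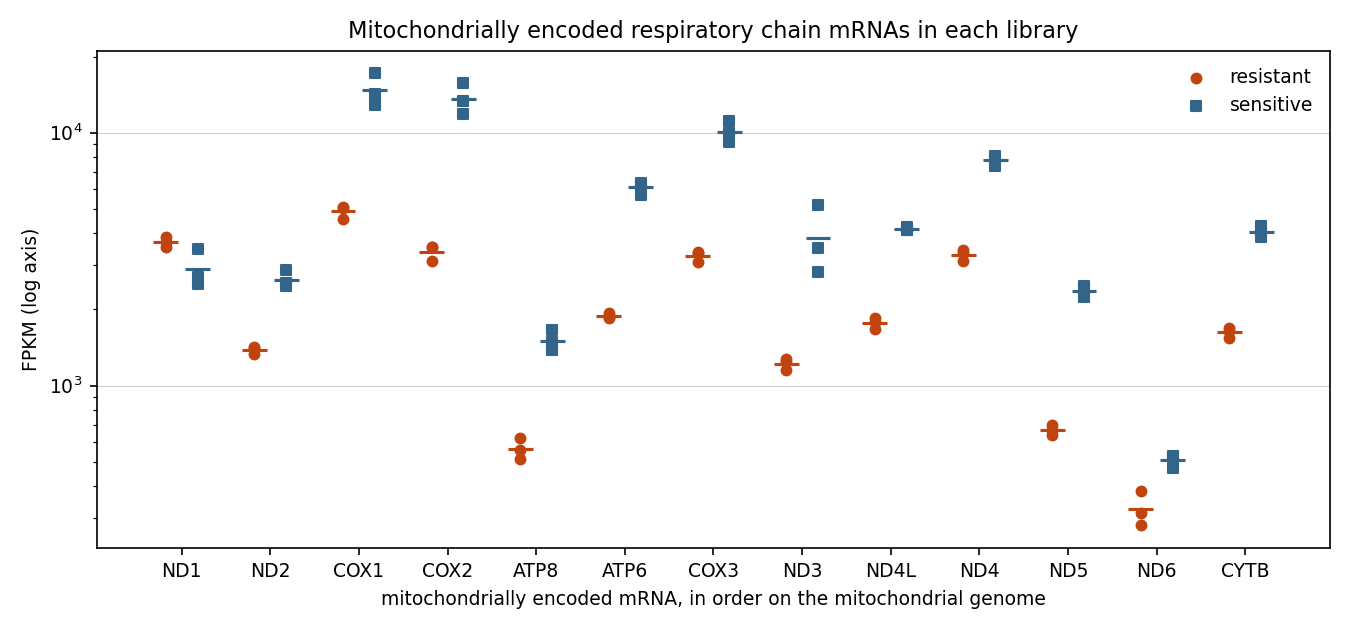
FPKM on a log axis of the 13 mitochondrially encoded mRNAs in each library, in genome order, with resistant libraries as circles on the left of each pair, sensitive libraries as squares on the right and lines at the group means. ND1 is the 1 mRNA with resistant points above the sensitive ones, 3540 to 3880 against 2514 to 3474 FPKM.

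The nuclear partners fell too, but less in sum. Nuclear subunit genes summed to 7081, 6491 and 6716 FPKM in resistant and to 10913, 11690 and 14469 FPKM in sensitive libraries, so the groups did not overlap. The ratio of mitochondrial to nuclear subunit FPKM was 4.06, 4.42 and 3.93 in resistant and 6.14, 6.26 and 5.71 in sensitive libraries. On the log2 scale this ratio was lower by 0.55 in resistant cells, with an exact permutation p of 0.1 (two-sided), the smallest that 3 against 3 libraries allow. Under quantile normalization, which sets the highest gene of every library to 1 value, the difference turned to 0.50.

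The balance between nuclear complexes shifted. Complex IV genes made up 24.7%, 24.6% and 24.5% of the summed FPKM of nuclear subunit genes in resistant and 31.1%, 31.2% and 33.7% in sensitive libraries. Complex I genes made up 36.3%, 36.5% and 37.3% in resistant and 30.4%, 30.3% and 30.3% in sensitive libraries. The share of complex III was higher in resistant cells, at 12.5% ± 0.201 against 8.89% ± 0.499 in sensitive cells, and that of complex V lower, at 23.7% ± 0.126 against 26.4% ± 0.883 (SD, n = 3 each). For each of the 5 complexes the groups did not overlap, and the exact permutation p was 0.1, the smallest possible here.

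**Figure D3:**
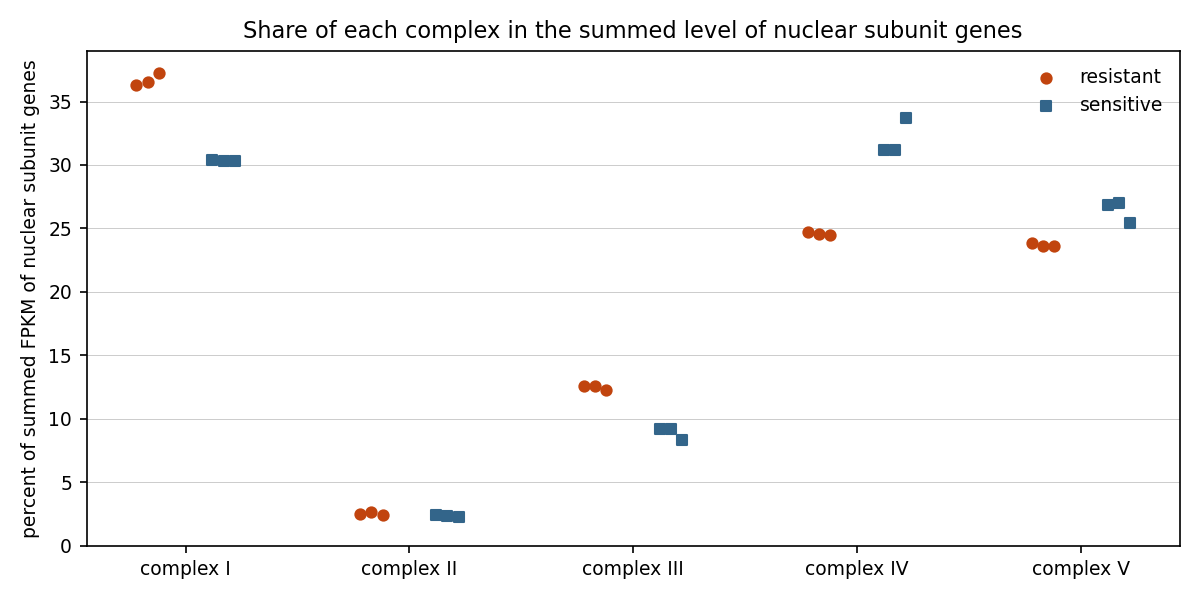
Percent of the summed FPKM of nuclear subunit genes that each complex took in each library, resistant libraries as circles on the left and sensitive libraries as squares on the right. The shares of complexes I, II and III lie higher in resistant libraries and those of complexes IV and V lower, without overlap.

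Complex I takes electrons from NADH in its matrix arm and pumps protons in its membrane arm. All 37 nuclear genes were tested, and 25 fell, 3 rose and 9 did not pass (25 fell and 5 rose without sensitive replicate 3). The 7 nuclear core subunits, which hold the flavin and the iron-sulphur clusters, showed 6 falls and 1 gene not past the test, NDUFS7 (log2 fold change 0.07). NDUFV2 had the steadier of the larger core falls, with 76.7, 79.2 and 86.1 FPKM in resistant and 163, 167 and 184 FPKM in sensitive libraries (-1.08). NDUFS3 fell by 1.36, and by 0.98 without sensitive replicate 3. Its sensitive values were uneven, at 109 and 118 FPKM in replicates 1 and 2 and 252 FPKM in replicate 3. NDUFV1, which binds NADH, fell by 0.66 and NDUFS1 by 0.46. The NDUFV1 call was lost without resistant replicate 2 or 3 (limma adjusted p = 0.052 and 0.060).

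Accessory subunits held both extremes of complex I. NDUFB7, a membrane arm subunit facing the intermembrane space, was at 10.8, 8.29 and 8.76 FPKM in resistant and at 63.0, 70.8 and 97.8 FPKM in sensitive libraries (log2 fold change -2.91, SE 0.19, limma adjusted p = 1.5e-05). The highest resistant library was far below the lowest sensitive one. NDUFAB1, the mitochondrial acyl carrier protein that also serves lipoic acid synthesis, was at 33.6, 31.8 and 35.8 FPKM in resistant and 121, 119 and 124 FPKM in sensitive libraries (-1.82, SE 0.09). NDUFB6 fell by 1.39, NDUFC1 by 1.32, NDUFB3 by 1.29 and NDUFB10 by 1.20, and 7 of the 11 NDUFB genes fell, with a median of -1.09.

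NDUFS4, an accessory subunit of the matrix arm whose loss causes Leigh syndrome, rose. It was at 57.2, 54.1 and 58.8 FPKM in resistant libraries and at 32.5, 26.2 and 19.2 FPKM in sensitive ones, a log2 fold change of 1.13 (SE 0.19, adjusted p = 0.0015 in limma). All resistant values were above all sensitive ones. Over all 6 libraries NDUFS4 was the 1 subunit gene with a rise of at least 2-fold. Without sensitive replicate 3 its rise was 0.93 (limma adjusted p = 2.4e-05), which is under 2-fold. NDUFB2 rose by 0.53 and NDUFC2 by 0.48, both at calls that depended on single libraries. The NDUFB2 call was lost without resistant replicate 1 or 3 or sensitive replicate 2, and under geometric mean scaling (limma adjusted p of 0.053 to 0.066), and the NDUFC2 call was lost without any 1 of the resistant replicates (adjusted p of 0.058 to 0.092). NDUFA10 and NDUFA5 were above sensitive values in every resistant library without passing (log2 fold changes 0.28 and 0.44). NDUFA10 passed as higher under 3 alternatives, including without sensitive replicate 3 (0.34, adjusted p = 0.0047). Without that library NDUFA5 was at 0.23 (adjusted p = 0.081). NDUFB9, the nuclear complex I gene with the highest mean, was at 314 ± 9.41 FPKM in resistant and 271 ± 71.2 FPKM in sensitive cells, and passed as higher only without sensitive replicate 3 (0.44, adjusted p = 0.00091).

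**Figure D4:**
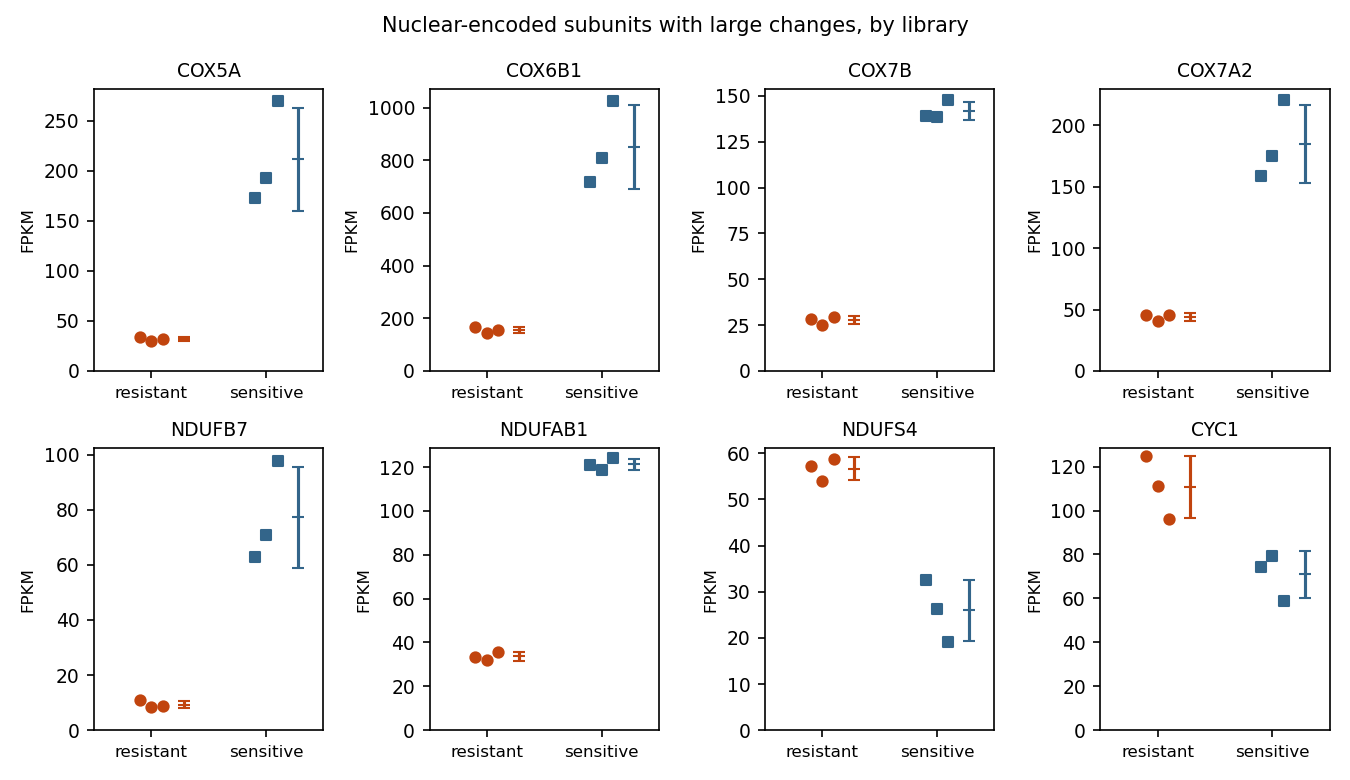
FPKM of 8 nuclear subunit genes in each library, resistant on the left and sensitive on the right, with the mean and SD (n = 3) beside the points and each axis starting at 0. COX5A, COX6B1, COX7B, COX7A2, NDUFB7 and NDUFAB1 lie lower in all resistant libraries, and NDUFS4 and CYC1 higher.

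Complex II, succinate dehydrogenase, belongs to both the chain and the citric acid cycle. Its 4 genes all fell, by 0.61 to 0.98 on the log2 scale. SDHA, the flavoprotein, was at 28.3, 27.7 and 28.1 FPKM in resistant and at 44.7, 50.1 and 61.1 FPKM in sensitive libraries (-0.86). The iron-sulphur subunit SDHB fell by 0.61, and the membrane anchors SDHC and SDHD by 0.70 and 0.98. None of the 4 reached a 2-fold fall, and no gene's groups overlapped.

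Complex III, which passes electrons from ubiquinol to cytochrome c, changed least by median, at -0.42, with 5 of 10 genes lower, 1 higher and 4 not past the test. The Rieske iron-sulphur protein UQCRFS1 fell by 0.66, with 35.2, 37.9 and 33.3 FPKM in resistant and 51.9, 58.1 and 59.8 FPKM in sensitive libraries. The core protein UQCRC2 fell by 0.64, UQCR10 by 0.63 and the hinge protein UQCRH by 0.52. UQCRHL, a near-identical copy of UQCRH, fell by 0.75, its reads cannot be told from those of UQCRH with certainty, and its call was lost without resistant replicate 3 (limma adjusted p = 0.055). CYC1, the cytochrome c1 that hands electrons to cytochrome c, rose.

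CYC1 was at 125, 111 and 96.3 FPKM in resistant and at 74.5, 79.4 and 58.9 FPKM in sensitive libraries (log2 fold change 0.64, SE 0.15, limma adjusted p = 0.0086). All resistant values were above all sensitive ones. UQCRB, UQCRC1, UQCR11 and UQCRQ had log2 fold changes of -0.32, -0.31, -0.29 and -0.18 and did not pass. UQCRB passed as lower under 3 alternatives, including without sensitive replicate 3 (-0.41, adjusted p = 0.0068). UQCRC1 and UQCR11 passed as lower without sensitive replicate 1 (-0.45 and -0.44). Without sensitive replicate 3, UQCRC1, UQCR11 and UQCRQ were at -0.13, -0.10 and 0.049 and did not pass (adjusted p = 0.20, 0.34 and 0.61).

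Complex IV, cytochrome c oxidase, had the lowest median of the nuclear complexes, at -1.42. Of its 17 nuclear genes 13 were tested, 11 fell and 2 did not pass. The 11 include COX7B2, whose direction the filter fixed, and the median covers it too. Without sensitive replicate 3, where COX7B2 was no longer tested, the median was -1.16. COX5A, a matrix subunit, was at 33.6, 29.9 and 32.3 FPKM in resistant and at 172, 192 and 270 FPKM in sensitive libraries (log2 fold change -2.66, SE 0.17, limma adjusted p = 1.6e-05). COX6B1, on the cytochrome c side, was at 166, 146 and 155 FPKM in resistant and 717, 809 and 1027 FPKM in sensitive libraries (-2.43, SE 0.15, adjusted p = 1.1e-05 in limma). In both genes the lowest sensitive library was several times above the highest resistant one. COX7B fell by 2.32, COX6A1 by 1.42 and COX5B by 1.34.

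COX4I1, COX8A, COX7C and COX6C had smaller differences. COX4I1, the largest nuclear-encoded subunit, was at 273, 242 and 255 FPKM in resistant and at 306, 334 and 404 FPKM in sensitive libraries (-0.43). Its call was lost without resistant replicate 2 or 3 or sensitive replicate 2, and under geometric mean scaling (limma adjusted p of 0.051 to 0.087). COX8A fell by 0.57, by 0.35 without sensitive replicate 3, and its call was lost without any 1 of the resistant replicates or sensitive replicate 2, with no filter and under geometric mean scaling (adjusted p of 0.058 to 0.14). COX7C fell by 0.38, a call lost without resistant replicate 2 (adjusted p = 0.070). COX6C was at -0.18 and did not pass, though it did without sensitive replicate 3 (-0.20, adjusted p = 0.028), and it has 18 pseudogenes by symbol in the RefSeq table.

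Tissue and testis forms were largely silent. COX4I2, COX7A1 and COX8C were listed at 0 in all 6 libraries, and COX6B2 was at 0.024 to 0.155 FPKM. COX7B2, a testis form of COX7B, was at 0, 0.025 and 0.0997 FPKM in resistant and at 18.7, 14.5 and 23.8 FPKM in sensitive libraries (log2 fold change -4.24). Only its sensitive values reached the filter, which fixed its direction. The counts of lower and non-overlapping genes and the medians over all 6 libraries include it. Next to COX7B itself, at 142 ± 5.10 FPKM in sensitive cells, it was the minor form there.

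The COX7A forms split. COX7A2, the subunit used outside heart and muscle, was at 45.5, 40.3 and 45.9 FPKM in resistant and at 159, 175 and 221 FPKM in sensitive libraries (-2.04, SE 0.14). COX7A2L, the related protein that joins complexes III and IV into supercomplexes, was at 51.4, 46.5 and 45.7 FPKM in resistant and at 29.5, 35.3 and 54.4 FPKM in sensitive libraries. Its log2 fold change of 0.31 did not pass (limma adjusted p = 0.25), since sensitive replicate 3 lay above the resistant range, and without that library it was 0.55 and passed (adjusted p = 0.00060). The ratio of COX7A2L to COX7A2 was 1.13, 1.15 and 0.996 in resistant and 0.186, 0.201 and 0.246 in sensitive libraries, without overlap (exact permutation p = 0.1, two-sided, the smallest possible).

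NDUFA4 and its relatives moved in opposite directions. NDUFA4, first described in complex I and now counted as a subunit of complex IV, was at 36.2, 37.2 and 32.7 FPKM in resistant and at 150, 157 and 179 FPKM in sensitive libraries (log2 fold change -2.16, SE 0.11, limma adjusted p = 4.8e-06). NDUFA4L2, a relative known as a hypoxia-induced gene and outside the chosen genes, was at 6.03, 4.31 and 5.01 FPKM in resistant and at 0.382, 0.159 and 0.514 FPKM in sensitive libraries (2.18, SE 0.15). Only its resistant values reached the filter, which fixed its direction. C15orf48, a further relative of NDUFA4 that can take its place in complex IV and is likewise outside them, was at 119 ± 1.96 FPKM in resistant and 1.92 ± 0.760 FPKM in sensitive cells (5.40, SE 0.20). The groups did not overlap for NDUFA4 and C15orf48, nor for NDUFA4L2, where the filter fixed this too. The level of C15orf48 per length was thus above that of NDUFA4 in each resistant library and far under it in each sensitive one.

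C15orf48 is also the host gene of the microRNA miR-147b, which is known to act on NDUFA4 mRNA, and the sequences of both are given for that reason. In RefSeq (GRCh38.p14) the mature miR-147b-3p lies at chr15:45433098-45433118 on the plus strand, inside C15orf48. It is shown with the seed, bases 2 to 8, in capitals.
hsa-miR-147b-3p: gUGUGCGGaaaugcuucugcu
The 3′ UTR of the NDUFA4-201 transcript in GENCODE release 29 holds a match to this seed at chr7:10933572-10933596 on the minus strand (GRCh38), in capitals within 25 bases.
NDUFA4 site: cttccagaagccacatCCGCACAat
The 7 letters CCGCACA occurred in the longest coding transcript of 2 of 84 nuclear subunit genes (2.38%) and of 9.29% of 10746 tested genes. Whole transcripts were searched with no allowance for their length, so these shares cannot be compared directly. A match is a description of sequence, the miRNA was not measured in these libraries, and its part in the level of NDUFA4 was not tested.

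**Figure D5:**
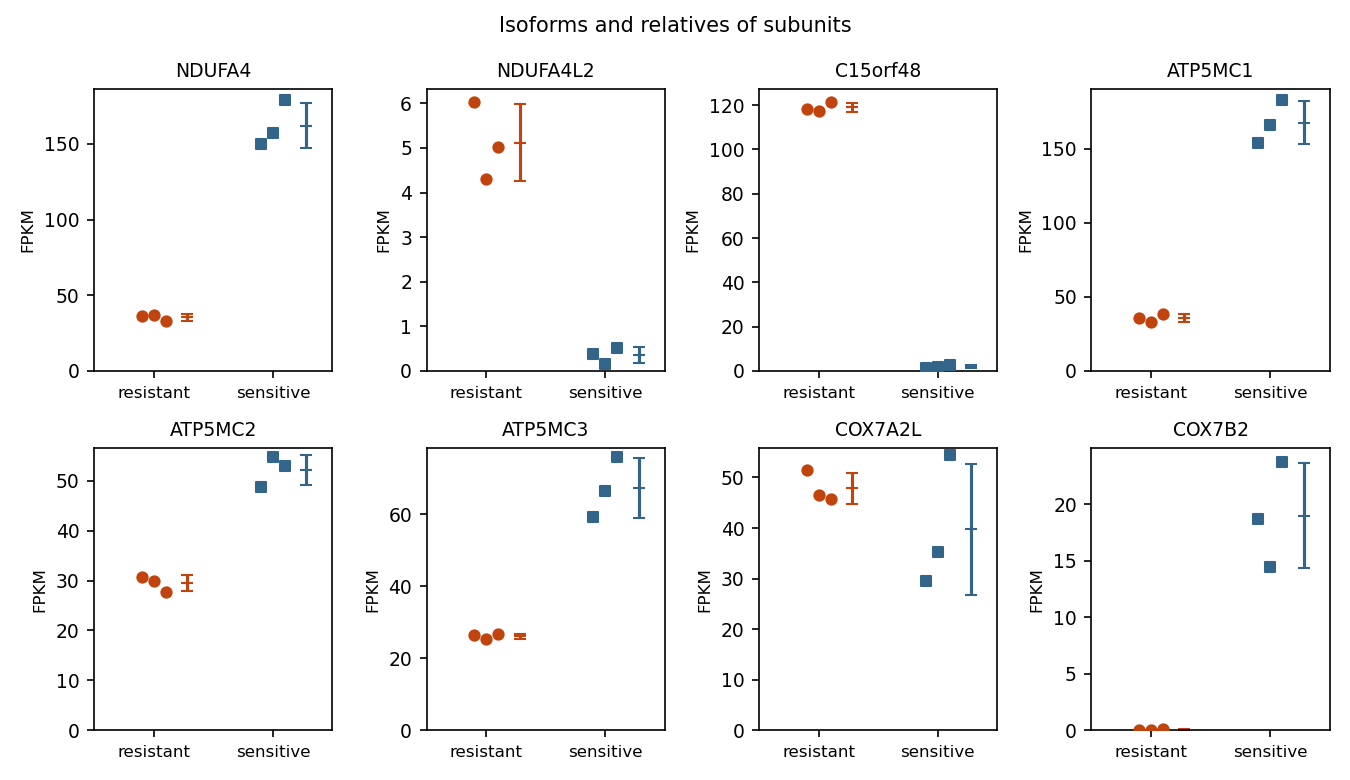
FPKM of NDUFA4, its relatives NDUFA4L2 and C15orf48, the 3 genes of the ATP synthase c subunit, COX7A2L and COX7B2 in each library, resistant on the left and sensitive on the right, with the mean and SD (n = 3) beside the points and each axis starting at 0. NDUFA4 averages 35.4 FPKM in resistant and 162 FPKM in sensitive cells, while C15orf48 averages 119 and 1.92 FPKM.

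In ATP synthase 15 of 16 tested nuclear genes of 18 fell and 1 did not pass, with a median of -1.17. In the catalytic F1 head, ATP5F1A was at 79.6, 75.3 and 74.1 FPKM in resistant and at 181, 193 and 198 FPKM in sensitive libraries (log2 fold change -1.31). ATP5F1C, the rotating central stalk, was at 76.9, 76.1 and 77.6 FPKM in resistant and 220, 221 and 243 FPKM in sensitive libraries (-1.55, SE 0.09, adjusted p = 8.5e-06 in limma). The catalytic subunit ATP5F1B, the highest nuclear gene of the complex, fell by 1.06, and by 0.87 without sensitive replicate 3. It was at 519, 481 and 454 FPKM in resistant and an uneven 827, 950 and 1323 FPKM in sensitive libraries.

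ATP5F1D, the stalk's delta subunit, did not follow its F1 partners. It was at 94.4, 85.2 and 87.1 FPKM in resistant and at 67.2, 69.2 and 106 FPKM in sensitive libraries (log2 fold change 0.16, limma adjusted p = 0.45). Resistant values lay between those of the sensitive libraries, and without sensitive replicate 3 the gene passed as higher (0.38, adjusted p = 0.0012). ATP5F1E, the epsilon subunit, was under 1 FPKM in all libraries and was not tested. It was at 0.623, 0.640 and 0.751 FPKM in resistant and 0.342, 0.490 and 0.229 FPKM in sensitive ones. The RefSeq table holds 2 pseudogenes of ATP5F1E by symbol, and how reads of such copies were placed is not known, so its true level is uncertain. ATP5MGL was at or near 0.

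The c-ring, which turns as protons pass, is made of 1 mature protein encoded by 3 genes that differ in their import sequences. ATP5MC1 was at 35.6, 33.0 and 38.1 FPKM in resistant and at 154, 166 and 183 FPKM in sensitive libraries (-2.20, SE 0.11, limma adjusted p = 4.4e-06), and ATP5MC3 and ATP5MC2 fell by 1.32 and 0.80. ATP5MC1 made up 38.3%, 37.4% and 41.2% of the summed FPKM of the 3 genes in resistant and 58.7%, 57.8% and 58.7% in sensitive libraries. The share of ATP5MC2 was 32.3% ± 2.07 in resistant and 18.2% ± 1.09 in sensitive cells (SD, n = 3 each), with no overlap between groups in the share of ATP5MC1.

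Stalk and small membrane subunits fell as well. Among those around the membrane part that help pair the enzyme into dimers, ATP5MJ fell by 1.83, ATP5MK by 1.53 and ATP5ME by 1.43, while ATP5MF and ATP5MG fell by 0.54 and 0.49. In the peripheral stalk, ATP5PF fell by 1.27, ATP5PB by 0.76, ATP5PO by 0.51 and ATP5PD by 0.33. The ATP5MG call was lost without resistant replicate 2 or 3 or sensitive replicate 2, under geometric mean scaling and with no filter (limma adjusted p of 0.059 to 0.12). The ATP5PD call was lost without resistant replicate 1 or 2 or sensitive replicate 1 or 2, and after rescaling without mitochondrial mRNAs (adjusted p of 0.053 to 0.14).

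Promoters of nuclear respiratory genes are known for sites of NRF1 and of the ETS factor GABP (NRF2), and 69 of the 86 nuclear genes matched the RefSeq promoter table (GRCh38.p14, 250 bases before to 50 after the start). The NRF1 motif (GCGCA, any base, GCGC), read on both strands, was in 17 of the 69 promoters (24.6%), in 12.4% of promoters of tested genes and in 6.28% of all promoters. The ETS letters CCGGAAG were in 20 of the 69 (29%), in 20.7% of promoters of tested genes and in 10.7% of all. Genes that fell held the NRF1 motif in 13 of 52 promoters (25%) and the others in 4 of 17 (23.5%), and 34 of the 69 (49.3%) held either motif. Neither motif contains the other, 3 promoters held both, and a match says nothing of binding.

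The SDHA promoter, at chr5:218070-218319 on the plus strand, is shown because it holds 4 identical NRF1 matches, in capitals, spaced 49 bases apart and starting 166, 117, 68 and 19 bases before the start. The COX6B1 promoter, at chr19:35648073-35648322 on the plus strand, is shown for a strongly lower gene with an ETS match, in capitals, on the opposite strand 12 bases before the start.
SDHA: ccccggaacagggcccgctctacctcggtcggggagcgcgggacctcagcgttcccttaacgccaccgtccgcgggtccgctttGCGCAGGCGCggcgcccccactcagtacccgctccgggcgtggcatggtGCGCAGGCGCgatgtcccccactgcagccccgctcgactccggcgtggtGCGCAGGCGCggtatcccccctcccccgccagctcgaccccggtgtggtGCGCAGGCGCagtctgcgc
COX6B1: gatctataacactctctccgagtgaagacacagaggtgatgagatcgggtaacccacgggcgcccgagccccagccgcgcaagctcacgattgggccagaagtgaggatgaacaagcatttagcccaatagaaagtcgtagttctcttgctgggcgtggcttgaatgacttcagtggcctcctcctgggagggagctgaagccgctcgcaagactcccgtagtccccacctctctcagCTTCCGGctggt

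The other genes of the pathway are set against the 32.5% of all tested genes that fell and the 35.2% that rose. Of 14 tested genes that express mitochondrial DNA, 6 rose (42.9%), 4 fell (28.6%) and 4 did not pass, shares near those of all tested genes, with a median of 0.19. TFAM, which packages the genome and starts its transcription, was at 12.8, 15.6 and 18.4 FPKM in resistant and at 7.31, 5.76 and 2.97 FPKM in sensitive libraries (log2 fold change 1.44). POLRMT, the mitochondrial RNA polymerase, was at 14.0, 13.9 and 15.8 FPKM in resistant and at 28.3, 29.8 and 36.9 FPKM in sensitive libraries (-1.06). Both were without overlap between groups, in opposite directions. The replication polymerase subunit POLG2 fell by 1.01, and MTERF1, which binds at the end of the mitochondrial ribosomal RNA genes, rose by 0.95.

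Among 18 genes of mitochondrial RNA processing and stability 3 rose (16.7%), 8 fell (44.4%) and 7 did not pass, with a median of 0.0031 (-0.10 without sensitive replicate 3). TBRG4 fell by 1.79 and GRSF1, an RNA granule protein, by 0.95, while FASTKD2 rose by 1.16. LRPPRC, which stabilises most mitochondrial mRNAs, rose by 0.89. Its sensitive values were 57.4, 43.5 and 25.6 FPKM, the rise was 0.57 without sensitive replicate 3, and the call was lost without resistant replicate 1, 2 or 3 or sensitive replicate 2 and with no filter (limma adjusted p of 0.052 to 0.083).

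Assembly factors were tested complex by complex. For complex IV, 14 of 23 tested factors fell (60.9%), 3 rose and 6 did not pass (median -0.56; 16 fell and 5 rose without sensitive replicate 3), with PET100 lower by 1.75, COA4 by 1.45, the insertase COX18 by 1.32 and COX15, an enzyme of haem A synthesis, by 1.30. Only the sensitive values of COX18 reached the filter, which fixed its direction. For complex II, 3 of 4 fell and 1 did not pass (median -1.04), with SDHAF1 lower by 1.48, SDHAF3 by 1.12 and SDHAF2 by 0.96. For complex I, 9 of 19 fell (47.4%), 6 rose (31.6%) and 4 did not pass (median -0.25). Among them ECSIT was at 4.48, 4.09 and 4.03 FPKM in resistant and at 25.2, 26.1 and 49.7 FPKM in sensitive libraries (-2.67), NDUFAF1 fell by 1.36, NDUFAF3 by 1.16 and TMEM186 by 1.13.

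TTC19, which keeps complex III clear of Rieske fragments, had the largest change among the assembly factors tested. It was at 79.4, 82.6 and 72.2 FPKM in resistant and at 7.47, 6.12 and 4.15 FPKM in sensitive libraries, a log2 fold change of 3.54 (SE 0.19, limma adjusted p = 6.4e-06). Of the 6 tested complex III factors 2 rose, 2 fell and 2 did not pass (median 0.08), and without sensitive replicate 3, 1 rose and 3 fell (median -0.29). UQCC2 and UQCC1 fell by 0.75 and 0.51, and the small rise of LYRM7 (0.30) was lost under most alternatives, including without any 1 of the resistant replicates and without sensitive replicate 2 or 3 (adjusted p of 0.063 to 0.19). The UQCC1 call was lost without resistant replicate 1 or 2 (adjusted p = 0.065 and 0.058). The 4 tested genes for complex V had a median of 0.36, and of 0.096 without sensitive replicate 3. ATPAF2, which helps build F1, rose by 0.86, and the ATP synthase inhibitor ATP5IF1 fell by 0.61. The small rise of DMAC2L (0.28) was lost under 9 alternatives. These include leaving out any library but sensitive replicate 3 (adjusted p of 0.064 to 0.16 in those fits).

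Among the mobile carriers and ubiquinone synthesis genes none was called higher. Of 14 genes 5 fell (35.7%, near the share of all tested genes) and 9 did not pass (median -0.39), and without sensitive replicate 3, 8 fell. PDSS2, a subunit of the enzyme that makes the ubiquinone tail, was at 0.993, 1.15 and 1.02 FPKM in resistant and at 11.6, 11.3 and 9.72 FPKM in sensitive libraries (-2.53). Its partner PDSS1 fell by 0.84 (not past the test without resistant replicate 2, limma adjusted p = 0.055), COQ10A by 0.98 and cytochrome c itself, CYCS, by 0.75.

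Among regulators of mitochondrial biogenesis 4 of 14 tested genes were higher, 4 lower and 6 not past the test. These shares, 28.6% each way, are near those of all tested genes, and TFEB and PPARGC1A among the lower ones reached the filter by their sensitive values alone. PPARGC1A, the coactivator PGC-1alpha, was at 0.020, 0.066 and 0.050 FPKM in resistant and at 4.66, 3.86 and 2.28 FPKM in sensitive libraries (log2 fold change -2.10). SIRT1, a deacetylase that acts on PGC-1alpha, rose by 2.93, the lysosomal regulator TFE3 by 1.82 and the AMPK subunit PRKAA1 by 1.20 (not past the test without resistant replicate 3, limma adjusted p = 0.056).

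Other routes feed electrons and fuel into the chain. Of 12 tested genes of uncoupling, alternative entry and carriers 7 fell (58.3%), 2 rose (16.7%) and 3 did not pass (median -0.70). Without sensitive replicate 3, 6 fell and 4 rose, with a median of -0.29. ETFDH, which feeds electrons of fatty acid oxidation to ubiquinone, was at 1.57, 1.98 and 1.97 FPKM in resistant and at 14.5, 12.8 and 16.4 FPKM in sensitive libraries (-2.45). Its electron donor subunit ETFA fell by 2.06, the choline dehydrogenase CHDH fell by 3.62, with only its sensitive values reaching the filter, and the uncoupling protein UCP2 rose by 1.38.

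Of 14 citric acid cycle genes 7 fell (50%), 1 rose and 6 did not pass (median -0.39; 10 fell and 2 rose without sensitive replicate 3). IDH2, the NADP-dependent mitochondrial isocitrate dehydrogenase, was at 3.83, 5.03 and 3.40 FPKM in resistant and at 98.4, 103 and 114 FPKM in sensitive libraries (log2 fold change -4.39). DLST, of the 2-oxoglutarate dehydrogenase complex, rose by 1.25, MDH2 fell by 0.82, and SUCLA2 fell by 0.70. The SUCLA2 call was lost under 8 alternatives. These include leaving out any library but sensitive replicate 3 (limma adjusted p of 0.061 to 0.12 in those fits).

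Markers of mitochondrial membranes were mixed. Of 11 genes of the outer membrane and import 5 fell (45.5%), 1 rose and 5 did not pass (median -0.38), with the channels VDAC3 and VDAC1 lower by 1.66 and 1.30, TIMM44 by 0.50 and the import motor chaperone HSPA9 higher by 1.20. The TIMM44 call was lost without resistant replicate 2 or 3 (limma adjusted p = 0.079 and 0.083). Of 15 genes of inner membrane shape and quality control 6 fell (40%), 2 rose and 7 did not pass (median -0.34; 9 fell without sensitive replicate 3), with the cristae subunit APOO lower by 1.85, the prohibitin PHB1 by 1.26 and CLPX by 0.95 and the cristae subunit CHCHD3 higher by 1.18. The matrix protease LONP1 fell by 1.11 (0.87 without sensitive replicate 3).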

How the data were processed

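RNA-seq of 3 resistant and 3 sensitive libraries was used. The authors deposited 1 table per library with 1 FPKM value per gene symbol. The unit was inferred from the values, and RPKM would look the same. Cutadapt and HISAT2 are named for trimming and alignment in the submitters' processing notes. The sources used here give no version, counter, build, annotation or strand setting. Per the labels' protocols, each library took 1.5 µg of total RNA. No read counts were analysed, but the spacing of low values implied depths that differed by at most 3.46%. The search for it covered only small differences between libraries, so a larger one could not have been found. The implied median was 39200000 reads or fragments over 871 genes with 1 transcript in GENCODE release 29 (quartiles 39000000 and 45900000).

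Groups and replicate numbers came from sample titles. The test was limma-trend (limma 3.58.1, R 4.3.3) on log2 values of FPKM plus a pseudocount of 1, over the 11694 genes that reached 1 FPKM in 3 or more libraries. All 6 libraries entered 1 fit of group with no block, and the threshold was 0.05 after Benjamini-Hochberg adjustment over those genes. Fold changes on this scale understate those of low genes. SDs are over 3 libraries and SEs are limma's. The fit was also run on simulated data with independent genes and few changed ones, unlike these data, and no result here rests on it. Python 3.11.15 with pandas 2.3.3, numpy 2.4.6 and matplotlib 3.10.9 made tables and figures.

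The members, the 20 lists of other genes and the tests were chosen with earlier results of these data known. Named are all 13 mitochondrial mRNAs, per nuclear complex the up to 5 largest called changes and the 2 highest genes, isoform families, members outside the filter or in it through 1 group, and up to 4 called genes per list (or the 2 highest where fewer than 2 were called). The other subunit genes named in the text were chosen after their values were seen, as were ALB, KRT19 and TFEB.

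Alternatives were geometric mean scaling (to the geometric mean sample), rescaling without mitochondrial mRNAs, quantile normalization, a pseudocount of 0.1, no filter, a filter at a mean of 5 FPKM, limma without the trend, a robust fit, a replicate block and each library left out.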

Additional observations from a re-analysis of the deposited data

How the results depend on the processing

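Over 138 tested named genes and 15 alternatives, 1946 of 2040 values kept their direction and their side of the test, 76 lost the call, 16 gained it and 2 changed sign, and 109 genes kept both throughout. Of the 72 subunit genes that fell, 61 kept the call under every alternative in which they were tested, as did 2 of the 4 that rose. A mean of at least 5 FPKM left 4973 calls, among only 7396 tested genes, against 7920. The number of nuclear subunit genes called higher, 4, ranged from 2 to 8 with 1 library left out, and was 8 without sensitive replicate 3. The number of mitochondrial mRNAs called higher, 0, was 1 (ND1) under quantile normalization, after rescaling without mitochondrial mRNAs and with the robust fit, and 0 to 1 with 1 library left out. Quantile normalization, which gives COX1 the same value in every library by construction, moved the median of the mitochondrial mRNAs to -0.64, turned the log2 ratio of mitochondrial to nuclear subunit FPKM to 0.50 against -0.55, and put ND4 at 0.0035 (limma adjusted p = 0.98) against -1.24. UQCRQ, at -0.18, ranged from -0.33 to 0.049 with 1 library left out and turned without sensitive replicate 3.

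No pairing by replicate number was visible. Same-numbered libraries had correlations of -0.42, 0.07 and -0.23 between their deviations from the group means, and other pairs -0.15 to 0.35. With 3 libraries a group these deviations depend on each other, so whether the samples were paired cannot be told. With the replicate block 7193 genes were called, with 54 nuclear subunit genes lower and 3 higher and 12 mitochondrial mRNAs lower. The block ended the calls of NDUFC2, COX4I1, COX8A, ATP5PD, ATP5MG, LYRM7, DMAC2L, SUCLA2 and TIMM44 among the named genes (limma adjusted p of 0.056 to 0.12). The limits are 3 libraries a group, a unit without counts, and levels that are relative to each library's total reads. The reads of the mitochondrial mRNAs thus enter every other value. Implied depths of the 6 libraries differed by at most 3.46%, in a search that covered only small differences.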
